A study of Mus musculus with 225 samples.

Results

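The 10 genes described here are the glucose transporter *Slc2a1* and 9 genes of the glycolytic enzymes, *Hk1*, *Hk2*, *Pfkl*, *Aldoa*, *Tpi1*, *Pgk1*, *Eno1*, *Pkm* and *Ldha*. They were chosen by name for their place in the pathway, and all 10 were found among the 23165 genes of the raw count table and among the 10948 genes of the normalized table. A filter on low values, which asked for 5 reads or more in 25% of autopod or of zeugopod cells, was passed by 4898 genes and by 9 of the 10, the exception being *Hk1*. The cells came from forelimbs of E12.5 mouse embryos on a mixed C57Bl6CBAF1 background that were heterozygous for *Hoxd11::GFP*, a tau-GFP knock-in within the *Hoxd11* coding sequence, so that each cell of both tissues carried the reporter allele. Cells of the autopod, the future hand, and of the zeugopod, the future forearm, were pooled over embryos, dissociated, sorted for the 20% with the most GFP and captured on a Fluidigm C1 chip. The table holds 225 cells, of which the authors retained 199: 59 autopod cells of the sequencing run NXT0072, 17 autopod cells of NXT0143, and 58 and 65 zeugopod cells of NXT0142 and NXT0143. The labels tie no cell to an embryo, so each tissue is 1 pooled sample, and the values below are descriptions with no test of a difference. Error terms are SDs over cells or exact intervals that cover counting error only.

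Retained cells held from 186271 to 9437447 reads on genes, with a median of 3003655, and from 1801 to 6162 detected genes. No 2 cells had identical counts. The limb mesenchyme markers *Prrx1* or *Prrx2* had at least 5 reads in 139 of 199 cells (69.8%, exact 95% interval 62.96 to 76.1), with summed levels from 0 to 6220 CPM (its share of a cell's reads, scaled to 1000000). No retained cell met the criterion for muscle, epithelium, endothelium or macrophages, and *Myod1*, *Myog* and *Krt5* were at 0 reads throughout. The tendon criterion, 2 of *Scx*, *Tnmd* and *Tnc*, was met by 17 zeugopod cells and by 0 of 76 autopod cells (exact upper limit 4.74%). Of the 4 blood markers the table holds 1, so blood cells could not be checked.

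Glycolysis splits glucose into pyruvate in the cytoplasm and yields ATP without oxygen. Transport into the cell and phosphorylation by hexokinase commit glucose to the cell, phosphofructokinase is the main regulated step, and lactate dehydrogenase turns pyruvate into lactate and restores the NAD+ that the pathway uses. Mesenchymal cells of the early limb and cartilage, a tissue with few vessels, are known for a strong use of this pathway, and many of its genes carry binding sites for the hypoxia-inducible factor HIF, whose core motif reads ACGTG or GCGTG.

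The sequences upstream of the start sites show how the genes differ in this motif. In the window from 250 bases before to 50 after each RefSeq start (GRCm38.p6), ACGTG occurred on either strand for 7 of the 10 genes, against 21.8% of 27025 genes with such a window. A gene counted if any of its windows matched. By window the match occurred in 8 of 17, against 19.6% of 32851, and 2 of the 8 hold the same site of *Aldoa*. The windows of *Pfkl*, *Tpi1* and *Eno1* held no match, and the 2 matches of *Hk1* lie after the start. CACGTG, which contains ACGTG on both strands, occurred for 1 of the 10 genes, *Ldha*, against 8.09% of all genes. The alternative core GCGTG occurred for 5 of 10 against 35.2%. A match is a string of letters, and binding was not measured. The upstream stretches with matches are given below for the transporter, for the hexokinase, and for 3 later enzymes, with each match in capitals and 5′ to 3′ on the strand of the gene.
Slc2a1, chr4:119108689-119108733 (plus strand): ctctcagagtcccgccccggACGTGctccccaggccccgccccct
Hk2, chr6:82774482-82774700 (minus strand): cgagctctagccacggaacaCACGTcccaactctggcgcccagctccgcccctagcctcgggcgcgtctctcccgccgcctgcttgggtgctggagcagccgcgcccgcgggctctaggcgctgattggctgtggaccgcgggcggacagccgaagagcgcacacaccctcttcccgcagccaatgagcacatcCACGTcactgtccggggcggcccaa
Aldoa, chr7:126799356-126799400 (minus strand): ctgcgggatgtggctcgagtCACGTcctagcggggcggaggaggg
Pgk1, chrX:106186930-106186993 (plus strand): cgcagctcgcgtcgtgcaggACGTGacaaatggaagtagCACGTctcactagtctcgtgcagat
Ldha, chr7:46845639-46845794 (plus strand): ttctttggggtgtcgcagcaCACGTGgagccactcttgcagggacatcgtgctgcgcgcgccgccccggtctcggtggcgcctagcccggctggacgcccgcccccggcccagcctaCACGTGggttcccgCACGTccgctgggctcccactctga
The match of *Slc2a1* begins 36 bases before the start, those of *Pgk1* lie 150 and 131 bases before it, and those of *Ldha* lie between 145 and 34 bases before it. *Ldha*, with CACGTG in 2 places, held the most matches of the stretches shown.

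Levels are given as the deposited normalized value, which is scaled by spike-in RNA and divided by gene length, on the scale log2(value + 1). A cell without reads of a gene sits at the floor of that gene, from 0.16 for *Hk1* to 0.54 for *Tpi1* on this scale. Some cells with few reads and a small spike-in factor sit there too, so the floor does not always mean 0 reads. The genes differed in how often and how high they were found. *Slc2a1*, *Hk2* and *Pfkl* had at least 5 reads in 24.6%, 37.7% and 47.2% of the 199 cells, and reached normalized values of 2050, 4611 and 4989, the highest of the 10. *Aldoa*, *Tpi1*, *Pkm* and *Ldha* were found in 63.3%, 55.8%, 75.4% and 69.3% of cells and reached 456, 513, 827 and 548. *Hk1*, *Pgk1* and *Eno1* were found in 11.1%, 39.2% and 29.6% of cells and reached 452, 270 and 395. With each cell thinned to 500000 reads the shares of *Pfkl* (42.9%), *Aldoa* (43.98%) and *Tpi1* (40.8%) were close together, and *Pkm* (57.6%) and *Ldha* (56.02%) were the genes found in over 50% of cells. *Eno1* (4.71%) and *Hk1* (8.38%) were then found in the fewest cells.

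*Slc2a1* (chr4:119108711-119137983, plus strand) encodes GLUT1, the transporter that brings glucose into the cell. Its normalized values ran from 0.293, the floor, to 2050 (autopod, NXT0072), 313 (autopod, NXT0143), 1725 (zeugopod, NXT0142) and 1935 (zeugopod, NXT0143), with the median at the floor in all 4 groups. The mean log2 level was 2.19 ± 3.16, 1.98 ± 2.62, 1.81 ± 3.02 and 1.40 ± 2.43 (SD, n = 59, 17, 58 and 65 cells, in that order). At least 5 reads were found in 24 of 76 autopod cells (31.6%, 21.4 to 43.2) and in 25 zeugopod cells (20.3%, 13.6 to 28.5), and all groups overlapped from the floor to 313.

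The hexokinases trap glucose as glucose 6-phosphate. *Hk1* (chr10:62268855-62379908, minus strand), the form most tissues use, was the lowest of the 10 genes over all cells, with a mean log2 level of 0.70 ± 1.73 (SD, n = 199). It had at least 5 reads in 4 of 76 autopod cells (5.26%, 1.45 to 12.9) and 18 zeugopod cells (14.6%, 8.91 to 22.1), and 1 cell held 86.7% of its autopod reads. *Hk2* (chr6:82725025-82774454, minus strand), the inducible form, was found far more often, in 28 of 76 autopod cells (36.8%, 26.1 to 48.7) and 47 zeugopod cells (38.2%, 29.6 to 47.4). Its share of cells differed more between the zeugopod runs, 25.9% in NXT0142 and 49.2% in NXT0143, than between the tissues. Its mean log2 level was 2.71, 3.997, 1.70 and 3.35 in autopod NXT0072, autopod NXT0143, zeugopod NXT0142 and zeugopod NXT0143. Of the cells of these 2 genes, 10 had at least 5 reads of both.

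*Pfkl* (chr10:77986947-78010083, minus strand) encodes the liver-type subunit of phosphofructokinase. Its median normalized value was 0.226, the floor, for the autopod in NXT0072 and the zeugopod in NXT0143, 2.04 for the zeugopod in NXT0142 and 43.7 for the autopod in NXT0143. The mean log2 level was 2.89 ± 3.48, 5.08 ± 4.54, 3.55 ± 3.72 and 2.80 ± 3.41 in the order given for *Hk2*. The 17 autopod cells of NXT0143 were the highest group, and they also had the largest SD.

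*Aldoa* and *Tpi1* encode aldolase A and triosephosphate isomerase, which make and interconvert the triose phosphates. *Aldoa* (chr7:126795234-126800751, minus strand) had at least 5 reads in 38 of 76 autopod cells (exact interval 38.3 to 61.7%) and 88 zeugopod cells (71.5%, 62.7 to 79.3). *Tpi1* (chr6:124810586-124814296, minus strand) had them in 44.7% and 62.6%. Both were lowest in autopod cells of NXT0072, with mean log2 levels of 2.32 and 2.71, and highest in autopod cells of NXT0143, with 3.81 and 3.69.

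*Pgk1* and *Pkm* encode phosphoglycerate kinase and pyruvate kinase, the steps that make ATP, and *Eno1* encodes the enolase between them. *Pgk1* (chrX:106187100-106203699, plus strand) had at least 5 reads in 15 of 76 autopod cells (19.7%, 11.5 to 30.5) and in 63 zeugopod cells (51.2%, 42.05 to 60.3), but in the run that both tissues share the intervals overlapped widely, at 35.3% (14.2 to 61.7) and 50.8% (38.1 to 63.4). After each cell was thinned to 500000 reads the shares over all runs were closer, at 16.7% and 31.9%. *Pkm* (chr9:59656368-59679375, plus strand) was found in 61.8% of autopod cells, fewer than *Ldha* with 76.3%, and in 83.7% of zeugopod cells, the most of any of the 10, with mean log2 levels of 2.77, 5.36, 4.04 and 4.53 in the 4 groups. *Eno1* (chr4:150236721-150248879, plus strand) was low, with mean log2 levels from 0.96 to 1.39, and 1 cell held 68.7% of its autopod reads.

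*Ldha* (chr7:46841475-46855627, plus strand) encodes the subunit of lactate dehydrogenase that favours lactate. Its normalized values ran from the floor of 0.334 to 548 with a median of 18.7 in autopod cells of NXT0072, and to 497 with a median of 58.1 in autopod cells of NXT0143. In the zeugopod they ran to 268 with a median of 4.18 in NXT0142, and to 244 with a median of 14.03 in NXT0143. Both autopod groups had higher medians than both zeugopod groups, while the ranges overlapped from the floor upwards.

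**Figure D1:**
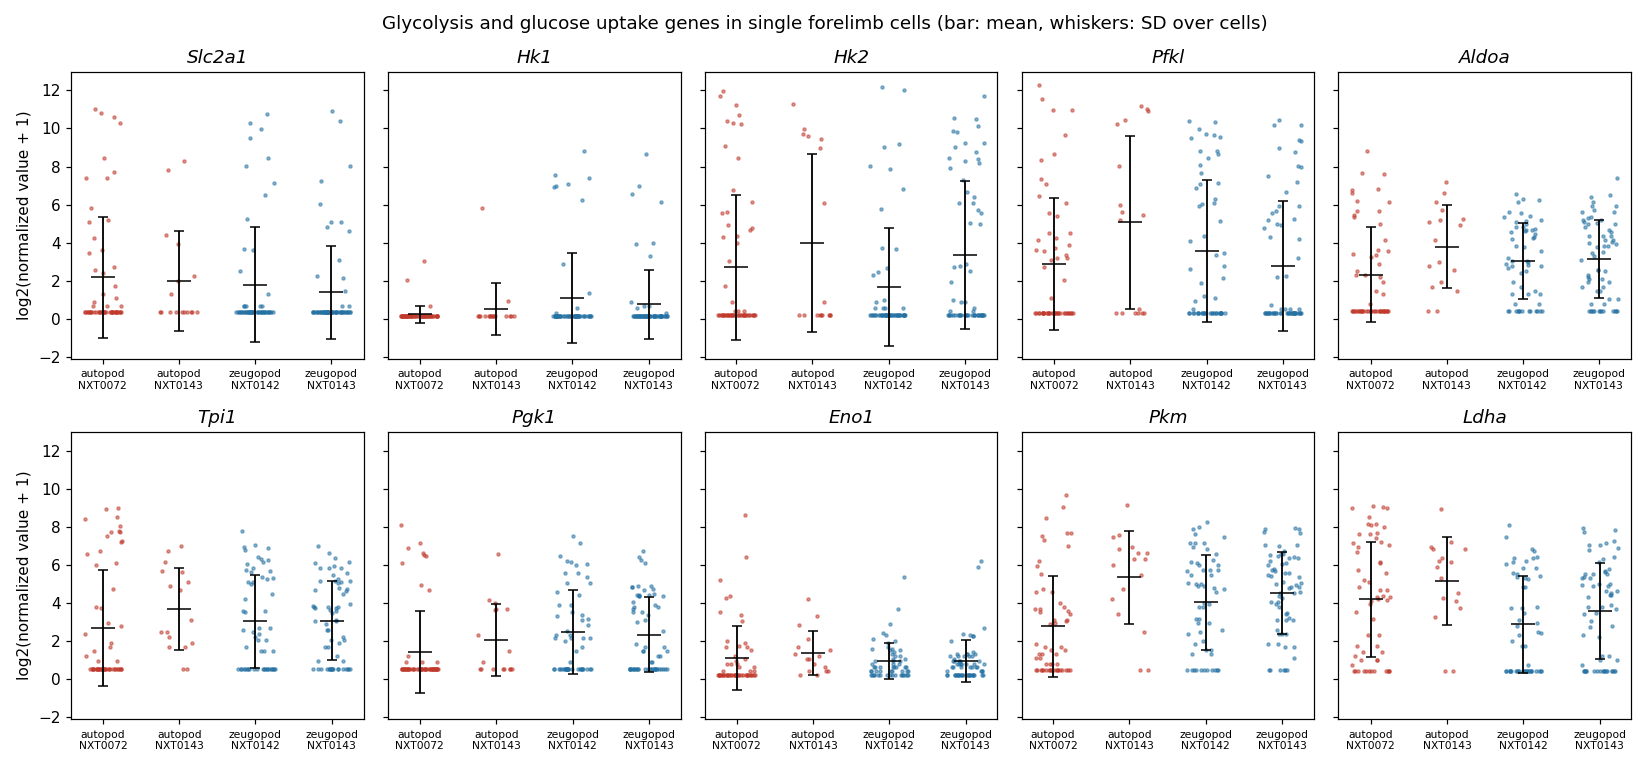
Each point is 1 retained cell, with the gene's level as log2(normalized value + 1) on the vertical axis and the tissue and run on the horizontal axis (59, 17, 58 and 65 cells). Bars give the mean and whiskers the SD over cells. *Slc2a1*, *Hk2* and *Pfkl* show a row of cells at the floor and a few above 10, while *Ldha*, *Pkm*, *Aldoa* and *Tpi1* fill the range between the floor and 10.

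Ordered by mean log2 level over the retained cells, the genes ran *Pkm* (3.94), *Ldha* (3.70), *Pfkl* (3.24), *Tpi1* (3.01), *Aldoa* (2.93), *Hk2* (2.73), *Pgk1* (2.09), *Slc2a1* (1.80), *Eno1* (1.05) and *Hk1* (0.70). No neighbours in this order differed by more than the smaller of their SDs over cells. The authors kept uniquely mapped reads, which lowers counts where other genes share a sequence. Of all 75-base windows of the longest coding transcript, 67.5% in *Pgk1*, 65.4% in *Eno1* and 19.6% in *Pkm* occur exactly in transcripts of other genes of the annotation, against 0% in *Hk2* and *Pfkl* and 0.973% in *Slc2a1*. *Ldha* matched 14 annotated pseudogenes at 90% identity or more, *Eno1* and *Pkm* 6 each, and the transporter, the hexokinases and *Pfkl* 0. The order of levels between genes is therefore uncertain for the later enzymes, and the part of the shared sequence in it was not tested. The comparisons below set a gene against itself.

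The comparison of autopod with zeugopod asks whether the hand and forearm fields differed in these genes. *Ldha* was the 1 gene of the 10 that differed by at least 1 between the tissue means on the log2 scale, and it was higher in the autopod by 1.15. Of the 4898 genes past the filter, 6.06% were higher by at least 1 and 13.4% lower, and the difference of *Ldha* was above that of 95.7% of them. The mean log2 level of *Ldha* was 4.41 ± 2.90 in the autopod (SD, n = 76) and 3.26 ± 2.54 in the zeugopod (n = 58 and 65 in the 2 runs). Tissue and run overlap in NXT0143 alone. Within that run the difference of *Ldha* was 1.56, and between NXT0072 and NXT0142 it was 1.31. The direction was the same in all 10 alternative ways of computing the tissue difference. These include the 2 comparisons just given and 1 without the filter, which leaves the value of a gene unchanged. The size fell below 1 with a pseudocount of 10 (0.76), with CPM (0.96), with thinned reads (0.99) and without cells of extreme spike-in factor (0.83).

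*Pkm* and *Pgk1* were lower in the autopod by 0.95 and 0.82 over all runs, short of 1. With CPM the differences were -1.26 and -1.14, with thinned reads -1.24 and -1.11, and with a pseudocount of 0.1 -1.23 and -1.18. With a pseudocount of 10 they were -0.41 and -0.26. With CPM and with thinned reads these 2 were the genes past 1, and *Ldha* was not. *Pgk1* was also lower in NXT0143 (-0.29) and between the other runs (-1.02). *Pkm* was not stable: its difference was 0.84 within NXT0143 and -1.27 between NXT0072 and NXT0142. *Pfkl* likewise went from 2.28 within NXT0143 to -0.66 between the other runs. *Hk2* and *Slc2a1* were higher in the autopod in each of the 3 comparisons, by 0.42, 0.65 and 1.005 for *Hk2* and by 0.55, 0.58 and 0.37 for *Slc2a1*, over all runs, within NXT0143 and between the other runs. The remaining genes, *Hk1*, *Aldoa*, *Tpi1* and *Eno1*, had differences between -0.85 and 0.66 in all 3 comparisons.

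The median difference of the 10 genes was 0.04 over all runs, beside -0.12 for all genes past the filter, 0.63 beside 0.18 within NXT0143, and -0.50 beside -0.34 between the other runs. Within NXT0143, 2 of the 10 genes were higher by at least 1, where 18.4% of all genes were, and 0 lower, where 9.21% were. Between NXT0072 and NXT0142, 2 were higher and 2 lower by at least 1, where 6.64% and 24.3% of all genes were. Of the 10 genes, 8 were higher and 2 lower in the autopod within NXT0143, 4 and 6 between the other runs, and 5 and 5 over all runs. As a group they thus had no direction that was common to these comparisons. Other measures moved with tissue as well: cells of the autopod had a median of 3684 detected genes and those of the zeugopod 3995, although within NXT0143 the order was the other way (3965 and 3745), and 5 of 8 genes of the stress response were higher in the autopod by at least 1, with a median of 1.14 over all runs and 2.82 within NXT0143. Their part in the difference of *Ldha* was not tested.

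**Figure D2:**
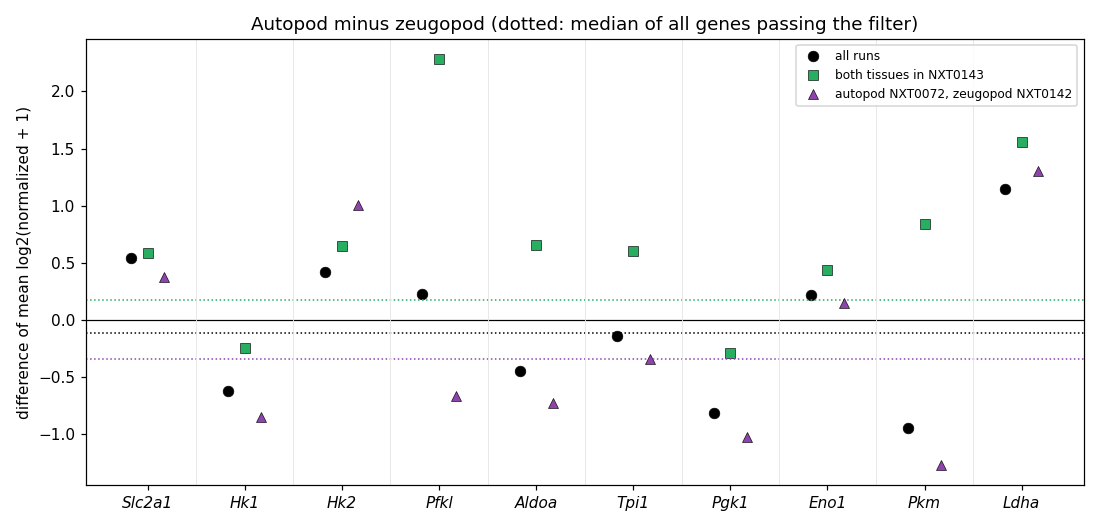
The difference of mean log2(normalized value + 1) between autopod and zeugopod is plotted for each gene over all runs (76 autopod cells), within NXT0143 (17 and 65) and between NXT0072 and NXT0142 (59 and 58). Dotted lines mark the median of the 4898 genes past the filter, and *Ldha* lies above 1 in all 3 comparisons while *Pkm* and *Pfkl* change sign.

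To ask whether the genes were high in the same cells, Spearman's rank correlation of CPM was computed over the cells of each tissue and run. Cells of a group share a run and a pool of limbs and differ in depth, so these values are descriptions. The median over the 45 pairs was 0.209 and 0.253 in autopod cells of NXT0072 and NXT0143, and 0.135 and 0.189 in zeugopod cells of NXT0142 and NXT0143 (n = 59, 17, 58 and 65). The median over all pairs of genes past the filter was 0.068, 0.036, 0.032 and 0.029. The glycolysis genes thus varied together more than the typical pair in each group, though weakly.

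The correlation was highest among the enzymes from aldolase onwards. Pairs among *Aldoa*, *Tpi1*, *Pgk1*, *Eno1*, *Pkm* and *Ldha* had group medians of 0.387, 0.253, 0.177 and 0.317. Pairs among *Slc2a1*, *Hk1*, *Hk2* and *Pfkl* had 0.127, 0.203, 0.030 and -0.044. This division was made after the values were seen. *Aldoa* and *Ldha* were the closest pair, with a median rank correlation of 0.460 over the 4 groups (0.335 to 0.504), and both had at least 5 reads in 97 cells. *Aldoa* and *Eno1* followed with 0.405 and *Slc2a1* and *Aldoa* with 0.376. In contrast, *Slc2a1* and *Hk2*, which act in sequence, had a median rank correlation of 0.009 (-0.107 to 0.107) with 19 cells that held both, and *Hk2* and *Pfkl* had 0.005. The lowest pairs were *Hk1* with *Pkm* (-0.055) and *Slc2a1* with *Pkm* (-0.024). Set against the mean of the other 9 genes, *Aldoa* had the highest correlation, with a median of 0.628 (0.444 to 0.835). *Eno1* (0.478, 0.026 to 0.508) and *Ldha* (0.397, 0.25 to 0.509) followed, and *Hk1* was the lowest (0.134).

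**Figure D3:**
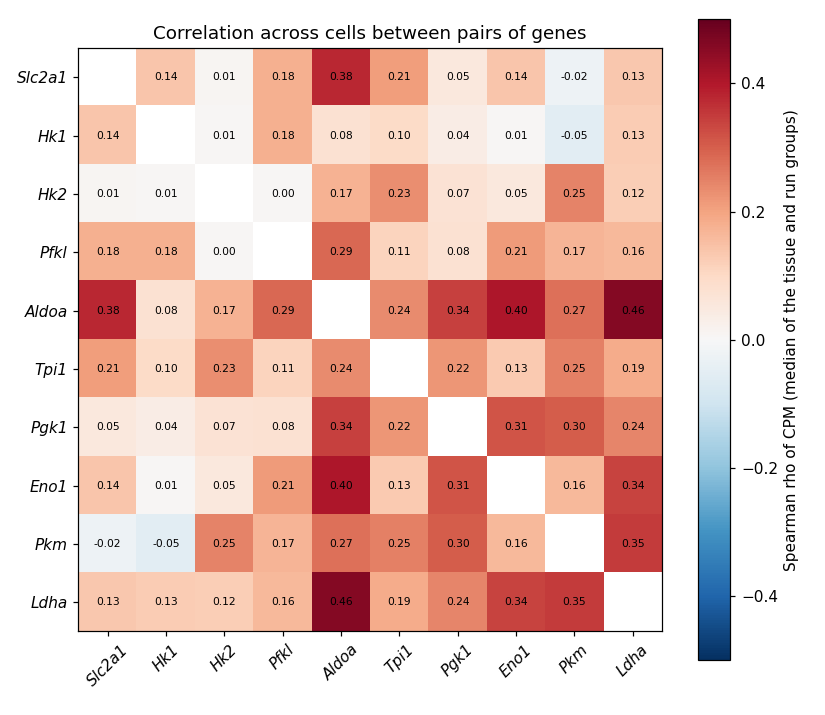
The matrix gives, for each pair of genes, Spearman's rank correlation of CPM across cells as the median over the 4 tissue and run groups, on a colour scale from -0.5 to 0.5. The block from *Aldoa* to *Ldha* holds most of the high values, up to 0.46 for *Aldoa* with *Ldha*, and *Slc2a1* with *Hk2* lies at 0.01.

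Detection differed between cells in ways that bear on these values. In autopod cells of NXT0072 the mean standardized level of the 10 genes had a rank correlation of 0.677 with the number of detected genes, against 0.135, 0.303 and 0.243 in the other groups. With the number of detected genes held constant the median pair correlation of that group was 0.083, beside 0.005 for all pairs, while the other groups stayed at 0.254, 0.135 and 0.189. In autopod cells of NXT0072 the enzymes from aldolase onwards had rank correlations with that number from 0.438 (*Ldha*) to 0.664 (*Aldoa*). The other genes had -0.071 (*Hk1*) to 0.342 (*Pfkl*). The division of the pairs given above was not computed with that number held constant. The number of the 10 genes with at least 5 reads ran from 0 to 9 per cell with a median of 4, and 6 of 199 cells had none.

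By the rank correlation with the mean standardized level of the 10 genes, the closest genes among the other 4889 were *Zcchc5* (median rank correlation over the 4 groups of 0.515), *Arhgdia* (0.444), *Uqcrc1* (0.420), *Stk26* (0.416) and *Rqcd1* (0.407). *Uqcrc1* encodes a subunit of respiratory complex III and *Stk26* a kinase. The median over all 4889 genes was 0.077, and 3876 of them were positive. In a list of 20 genes of the HIF response, 9 passed the filter, with a median of 0.135. The highest was *P4ha1*, a prolyl hydroxylase that collagen needs, with 0.385 at rank 9 of 4889, and the lowest was *Arnt*, the partner subunit of HIF, with -0.043 at rank 4405. *Bnip3*, a HIF target at rank 20 with 0.339, is named after its value was seen. In a list of 27 further genes of glucose uptake, glycolysis and lactate, 7 passed the filter, with a median of 0.162, from *Pfkm*, the muscle-type phosphofructokinase (0.287, rank 67), to *Slc16a1*, a lactate transporter (-0.029, rank 4249). *Gapdh*, which is used as a standard for many assays, did not pass and had at least 5 reads in 23 of 199 cells. Only uniquely mapped reads were kept, and the sequence that *Gapdh* shares with other genes was not examined. Its share of cells is given as found, and the part of shared sequence in it was not tested. The 3 cell cycle genes past the filter had a median of 0.004 and the 8 stress genes one of 0.028. For these correlations the number of detected genes was not held constant.

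Over all runs both lists were mixed between the tissues. Of the 7 further glycolysis genes, 0 differed by at least 1 over all runs, from *Slc2a3*, the transporter GLUT3 (0.55), to *Gpi1*, glucose 6-phosphate isomerase (-0.46). Of the 9 HIF genes, 1 was higher by at least 1, *Bnip3l*, a mitophagy receptor (1.33), and 0 were lower, the lowest being *P4ha1* (-0.91). Of all genes past the filter 6.06% were higher and 13.4% lower, so these counts over all runs are near the background. Within NXT0143 all 7 further glycolysis genes were higher in the autopod, 3 of them by at least 1, where 18.4% of all genes were. Their median was 0.59 there, beside 0.18 for all genes, and -0.42 between NXT0072 and NXT0142, beside -0.34. The medians of the HIF genes were 0.29 and 0.52 in these 2 comparisons.

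The relation to cartilage was described with 5 markers: *Sox9*, the master regulator of chondrogenesis, and the matrix genes *Col2a1*, *Acan*, *Col9a1* and *Matn1*. Cells with at least 5 reads of 3 or more of them were called chondrogenic-marker cells. There were 35 of 76 in the autopod (46.1%, 34.5 to 57.9) and 38 in the zeugopod (30.9%, 22.9 to 39.9). *Matn1* was at 0 reads in both autopod groups and in zeugopod cells of NXT0142, so the call rested on the other markers there.

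*Slc2a1* was the one gene of the 10 past 1 in both tissues. It was higher in marker cells by 1.18 in the autopod and by 1.29 in the zeugopod. Per run its difference was 1.10 and 1.45 in the autopod and 1.10 and 1.45 in the zeugopod, so that all 4 groups had the same direction. It had at least 5 reads in 45.7% of marker cells (28.8 to 63.4) and 19.5% of other cells (8.82 to 34.9) of the autopod, and in 31.6% (17.5 to 48.7) and 15.3% (8.40 to 24.7) of the zeugopod. The intervals overlapped in each tissue. A pseudocount of 10 left differences of 0.62 and 0.87, and at least 2 markers in place of 3 left 0.74 and 0.56.

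*Ldha* separated the marker cells of the zeugopod from its other cells, with a difference of 2.11. The median normalized value was 43.1 in the 38 marker cells (highest 268) and 2.34 in the 85 other cells (highest 244), and the difference was 1.64 in NXT0142 and 2.62 in NXT0143, and 2.24 without the 17 tendon-marker cells. At least 5 reads were found in 84.2% of marker cells (68.7 to 93.98) and 56.5% of other cells (45.3 to 67.2) over both runs. In the autopod *Ldha* had a median of 19.04 in marker cells and 22.04 in other cells, and a difference of -0.37, with -0.57 in NXT0072 and 0.30 in NXT0143. The zeugopod cells without the markers were thus the low group. Without the marker cells the autopod was higher than the zeugopod in *Ldha* by 1.97, whereas the mean log2 level of marker cells was 4.21 ± 2.90 (autopod, SD, n = 35) and 4.72 ± 2.31 (zeugopod, n = 38).

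**Figure D4:**
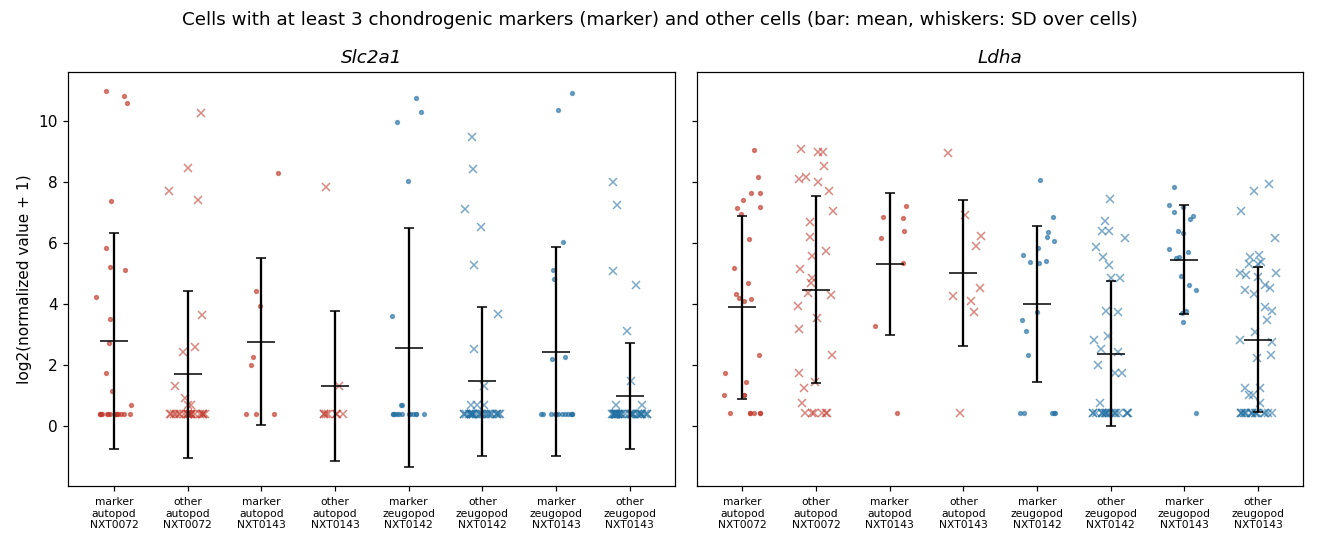
Levels of *Slc2a1* and *Ldha* as log2(normalized value + 1) are plotted for cells with at least 3 chondrogenic markers (dots) and other cells (crosses) of each tissue and run. Bars give the mean and whiskers the SD over cells. *Slc2a1* has a larger share of cells with at least 5 reads among marker cells in each group, and *Ldha* is lowest in the other cells of the zeugopod.

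*Pfkl* was the third gene past 1 in the zeugopod, higher in marker cells by 1.37, with 0.84 in NXT0142 and 1.81 in NXT0143, against 0.27 in the autopod, with 0.22 in NXT0072 and 0.35 in NXT0143, so that its direction was also the same in all 4 groups. In all, 3 of 10 genes were higher by at least 1 in zeugopod marker cells, where 3.72% of all genes past the filter were, and 0 were lower, where 11.4% of all genes were. In the autopod 1 of 10 was higher, where 2.55% of all genes were, and 0 lower, where 27.1% were. All 10 differences were positive in the zeugopod over all runs, with a median of 0.29 beside -0.21 for all genes, but the runs differed: the median was 1.29 in NXT0143, where 6 genes were higher by at least 1 and 12% of all genes were (10.9% were lower). In NXT0142 it was -0.11 beside -0.47 for all genes, with 2 genes higher and 1 lower by at least 1, where 5.59% and 27.4% of all genes were. *Hk2* went from 2.04 in NXT0143 to -1.27 in NXT0142, and *Aldoa* from 1.73 to -0.09. In the autopod the median was -0.11 beside -0.55, and *Pgk1* (-0.83) and *Tpi1* (-0.62) were the lowest. Marker cells of the autopod also had fewer detected genes than other cells (a median of 3390 against 3890) and smaller spike-in factors (0.835 against 1.64), and all 3 cell cycle genes were lower in them, with a median of -2.37. In the zeugopod the factors were 0.895 and 0.882 and the cell cycle median was -0.21. The part of these differences in the values of the autopod was not tested.

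**Figure D5:**
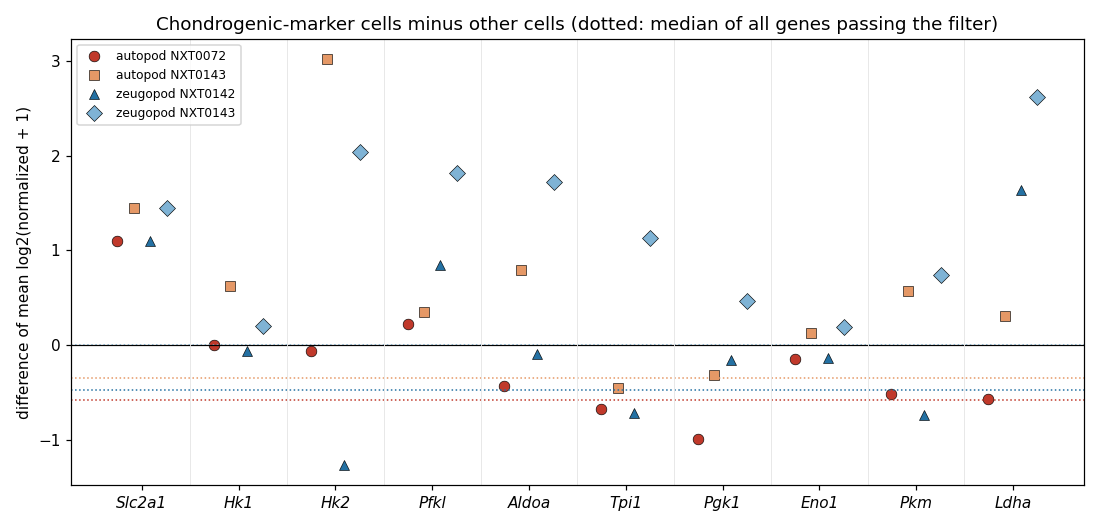
The difference of mean log2(normalized value + 1) between chondrogenic-marker cells and other cells is plotted for each gene in autopod NXT0072 (27 and 32 cells), autopod NXT0143 (8 and 9), zeugopod NXT0142 (19 and 39) and zeugopod NXT0143 (19 and 46). Dotted lines mark the median of all genes past the filter in each group. *Slc2a1* lies between 1.10 and 1.45 in all 4 groups, *Ldha* is above 1 in both zeugopod groups, and *Hk2* ranges from -1.27 to 3.02.

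Correlation across cells with the mean standardized level of the markers was computed as well. *Slc2a1* had rank correlations of 0.176, 0.283, 0.199 and 0.219 and *Ldha* of -0.016, 0.304, 0.200 and 0.429 in autopod NXT0072, autopod NXT0143, zeugopod NXT0142 and zeugopod NXT0143. The highest value of any of the genes was that of *Aldoa* in zeugopod cells of NXT0143, 0.491. In that group 9 of the 10 genes were positive, where 44.8% of all genes were, and the median of the 10 was 0.258. The medians of the other groups were 0.022, 0.092 and 0.0003, beside -0.115, -0.067 and -0.099 for all genes. With the number of detected genes held constant, *Slc2a1* had 0.279, 0.311, 0.232 and 0.216 in the 4 groups. *Ldha* then had 0.142, 0.268, 0.366 and 0.426, in the same order.

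Among the further glycolysis genes, 2 of 7 were higher by at least 1 in zeugopod marker cells and 0 lower, with a median of 0.31, where 3.72% of all genes were higher and 11.4% lower. They were *Gpi1* (1.02) and *Ldhb* (1.16), the other subunit of lactate dehydrogenase, which is named after its value was seen. Of the 9 HIF genes 1 was higher, *P4ha1* (2.70), with 0.80 in NXT0142 and 4.57 in NXT0143, and the median was -0.05. The runs differed for this list as well. In NXT0143 5 were higher by at least 1 and 1 lower, where 12% and 10.9% of all genes were, with a median of 1.02. In NXT0142 0 were higher and 1 lower, where 5.59% and 27.4% of all genes were, with a median of -0.33. In the autopod marker cells 0 of 7 and 0 of 9 were higher by at least 1, where 2.55% of all genes were, 1 of 7 and 0 of 9 were lower, where 27.1% were, and *P4ha1* had a difference of -0.69. Per run the autopod medians of the 7 and of the 9 were -1.03 and -0.40 in NXT0143, beside -0.35 for all genes. In NXT0072 they were -0.009 and 0.14, beside -0.58.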

How the data were processed

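Single cells of 2 tissues and 3 runs were sequenced with 75-base reads. Per the labels and the study's methods, the authors mapped reads uniquely to mm10 (GRCm38) with Bowtie2 and deposited raw counts of reads per gene for 225 cells. They also deposited a normalized signal for 199 cells, in which counts are multiplied by a spike-in factor per cell (0.229 to 24.7) and divided by length in kb. Counts of 0, and some low counts in cells with small factors, take the floor value of the gene. The 92 spike-in rows, summed under their column names, did not follow these factors (rank correlation -0.15 to 0.22 in the 4 groups) and were not used. CPM does not use the factors.

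Differences of mean log2(normalized + 1) were computed between groups of cells, with 1 as the size called, and CPM from the counts (per 1000000 reads) for rank correlations. Shares of cells have exact Clopper-Pearson 95% intervals. Reads carry no molecular identifiers, and intervals cover counting error only. Thinning used 500000 reads and seed 42, which left 191 cells. Motifs were searched in RefSeq promoter windows, and shared sequence was found among GENCODE M21 transcripts with blastn 2.17.0. Python 3.11.15, numpy 2.4.6, pandas 2.3.3 and scipy 1.17.1 were used, and the scripts were tested on simulated data. No doublet caller was run.

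The genes, lists and markers were chosen with earlier results of these data known. Named genes are the 10 genes, the 5 genes closest to them, the extremes of each list, and the chondrogenic markers. The alternatives were other pseudocounts, CPM, thinned reads, single runs, other marker numbers, other correlations and no filter. Cells left out for extreme factors or tendon markers, and correlations without *Hk1*, were added after seeing the data.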

Additional observations from a re-analysis of the deposited data

Results flagged for a closer look

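The difference of *Ldha* between chondrogenic-marker cells and other cells was 2.11 in the zeugopod and -0.37 in the autopod, in opposite directions in the 2 tissues. The median over all genes past the filter was -0.21 in the zeugopod and -0.55 in the autopod, so *Ldha* lay above it in both. The difference between the tissues was not tested, since each tissue is 1 pooled sample. The autopod value was 0.30 within NXT0143 and 0.02 with CPM.

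The difference of *Pfkl* between autopod and zeugopod was 2.28 within NXT0143 and -0.66 between NXT0072 and NXT0142. That of *Pkm* was 0.84 within NXT0143 and -1.27 between the other runs. Neither change of direction was tested.

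The 26 cells that the authors did not retain held 421 reads of the 10 genes, 89.5 CPM against 925 CPM in the retained cells, and 2 of them had at least 5 such reads.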

How the results depend on the processing

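No paired analysis was possible because the numbers in the labels only name cells and no result comes from a test. Of 79 alternative values of group results 56 moved by less than the spread between runs or, for counts, by no more than 1.5 times. No group median reached 1 as reported, so a reversal of a called value could not occur among them. The median tissue difference did change sign, from 0.04 over all runs to -0.50 between NXT0072 and NXT0142. The number of genes with a tissue difference of at least 1 in size, 1 as reported, was 3 with a pseudocount of 0.1, 0 with one of 10, 2 with CPM, with thinned reads, within NXT0143 and without cells of extreme spike-in factor, 4 between NXT0072 and NXT0142, and 5 with medians. In the autopod the number for chondrogenic-marker cells, 1 as reported, was 2 with at least 2 markers, with thinned reads and within NXT0143, 3 with at least 4 markers and 0 with a pseudocount of 10, and the median went from -0.11 to 0.79 with at least 4 markers, which 5 autopod cells had, and to 0.46 within NXT0143. In the zeugopod the number, 3 as reported, was 6 with at least 4 markers and within NXT0143 and 1 with a pseudocount of 10, and the median, 0.29 as reported, was 1.29 within NXT0143 and 1.25 with at least 4 markers, which 12 cells had. The median pair correlation was 0.199 and fell to 0.142 with Pearson's r on log2 values. The median share of cells with a gene went up to 54.6% (autopod, 40.8% as reported) and 63.8% (zeugopod, 48.8% as reported) with 1 read in place of 5, and down to 36.6% with thinned reads in the zeugopod. Apart from what the construction of each alternative shows, the causes were not tested. Of 310 values of single genes, 245 moved by less than the spread between runs. For a gene that spread rests on 2 values from separate runs, which are also among the alternatives. Differences without the filter equal those reported by construction, since only the background genes change, and they count as unmoved. Both tallies therefore overstate how stable the values were.

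Depth limits the low genes. *Hk1* had at least 5 reads in 22 of 199 cells, so its correlations rest on few cells. *Eno1* had them in 59 of 199 cells, and in 9 of 191 after thinning, so its correlations rest largely on low counts. The 17 autopod cells of NXT0143 are the only autopod cells that share a run with the zeugopod.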
